A study of Mus musculus with 12 samples.

Results

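The genes described here are the ligands of the epidermal growth factor receptor (EGFR) that were named for this work (Areg, Ereg, Hbegf, Tgfa, Btc and Epgn), 3 receptors of the family (Egfr, Erbb2 and Erbb3) and the feedback inhibitor Errfi1. They were found by mapping the Ensembl identifiers of the gene count table to these symbols, which gave 10 genes of the 52636 listed. All 10 were among the 17993 genes with enough counts to be tested. RNA sequencing was performed on whole skin from 12 wild-type BALB/c mice in 4 groups, with 3 independent biological samples and 1 library per sample in each group. The control group was injected with vehicle, and the LL37 group was given intradermal injections of the human cathelicidin peptide LL37 into the shaved back skin over 2 days. The control + RAPA and LL37 + RAPA groups had the same injections and were also given rapamycin (RAPA), which inhibits mTORC1, while the other 2 groups were given its vehicle. For BALB/c mice the methods describe intraperitoneal RAPA at 4 mg/kg per day, but the route and dose are not stated for the sequenced mice themselves. The mice of this model were 8 weeks old, and the skin was taken as lesional whole skin, so that epidermis, dermis and deeper layers were not separated. The comparisons ask how LL37 injection changes these genes and whether RAPA changes that response.

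EGFR ligands are made as membrane proteins of the cell surface, and proteases shed them so that they bind receptors on the same or neighbouring cells. Ligand binding makes receptors of the family pair up and signal through the RAS-ERK and PI3K-AKT pathways, and Erbb2, which has no known ligand of its own, serves as a shared partner. In epidermis, keratinocytes both make and sense these ligands, and the system is known for its part in keratinocyte growth, wound repair and hair growth, while Errfi1 (also called Mig6) binds active receptors and holds their signal back.

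The libraries held between 15734559 and 23271784 counts on genes, so that 3 counts, taken as the floor, correspond to between 0.129 and 0.191 CPM (counts scaled to library size). The floor covers counting error only. LL37 replicate 3 stood apart from the other libraries of its group: on the first principal component, which held 68.3% of the variance, it lay at 64.4, while LL37 replicates 1 and 2 lay at 133 and 129. Keratinocyte markers were present in every library, and of the marker genes of 13 cell types and states only Krt25, a hair follicle keratin, stayed at or under the floor in all 12. The summed level of 11 skeletal muscle markers was between 29639 and 44213 CPM in control, between 18.5 and 649 in LL37 and between 2583 and 5671 in LL37 + RAPA. In such bulk samples fewer cells of a type and less RNA per cell cannot be told apart.

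On CPM per kilobase of exon, which allows levels to be compared between genes, the inhibitor and 2 receptors were the most abundant members in control skin. Errfi1 was at 65.3 ± 8.95 (SD, n = 3, as for the levels that follow), Erbb2 at 34.7 ± 4.50 and Erbb3 at 23.7 ± 3.31 CPM per kilobase. Ereg followed at 9.91 ± 2.80, Egfr at 7.39 ± 0.743 and Btc at 6.02 ± 1.09, and Tgfa was at 4.32 ± 0.391. The lowest levels per length were those of Epgn at 4.28 ± 2.88, Hbegf at 2.60 ± 0.569 and Areg at 1.75 ± 0.696. In this order of control levels, Ereg and Egfr, Egfr and Btc, Tgfa and Epgn, Epgn and Hbegf, and Hbegf and Areg had intervals of mean ± SD that overlapped, and the other neighbours did not. The most abundant ligand per length in control skin was thus Ereg, and the least abundant was Areg.

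In LL37 skin the order of levels per length was a different one. Erbb2 at 45.1 ± 4.87, Errfi1 at 44.4 ± 9.84 and Erbb3 at 39.8 ± 6.21 CPM per kilobase lay within their spread of each other at the top. Epgn was now the ligand with the highest mean, at 13.9 ± 4.89, although it was not separated from Ereg at 12.4 ± 6.12 or from Egfr at 11.4 ± 3.13. Tgfa at 8.72 ± 1.54 came next and overlapped Egfr in this sense, followed by Hbegf at 5.18 ± 0.666 and Areg at 5.03 ± 2.11, which did not differ beyond their spread. Btc was the lowest member, at 2.84 ± 2.39, and its spread reached that of Areg.

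**Figure D1:**
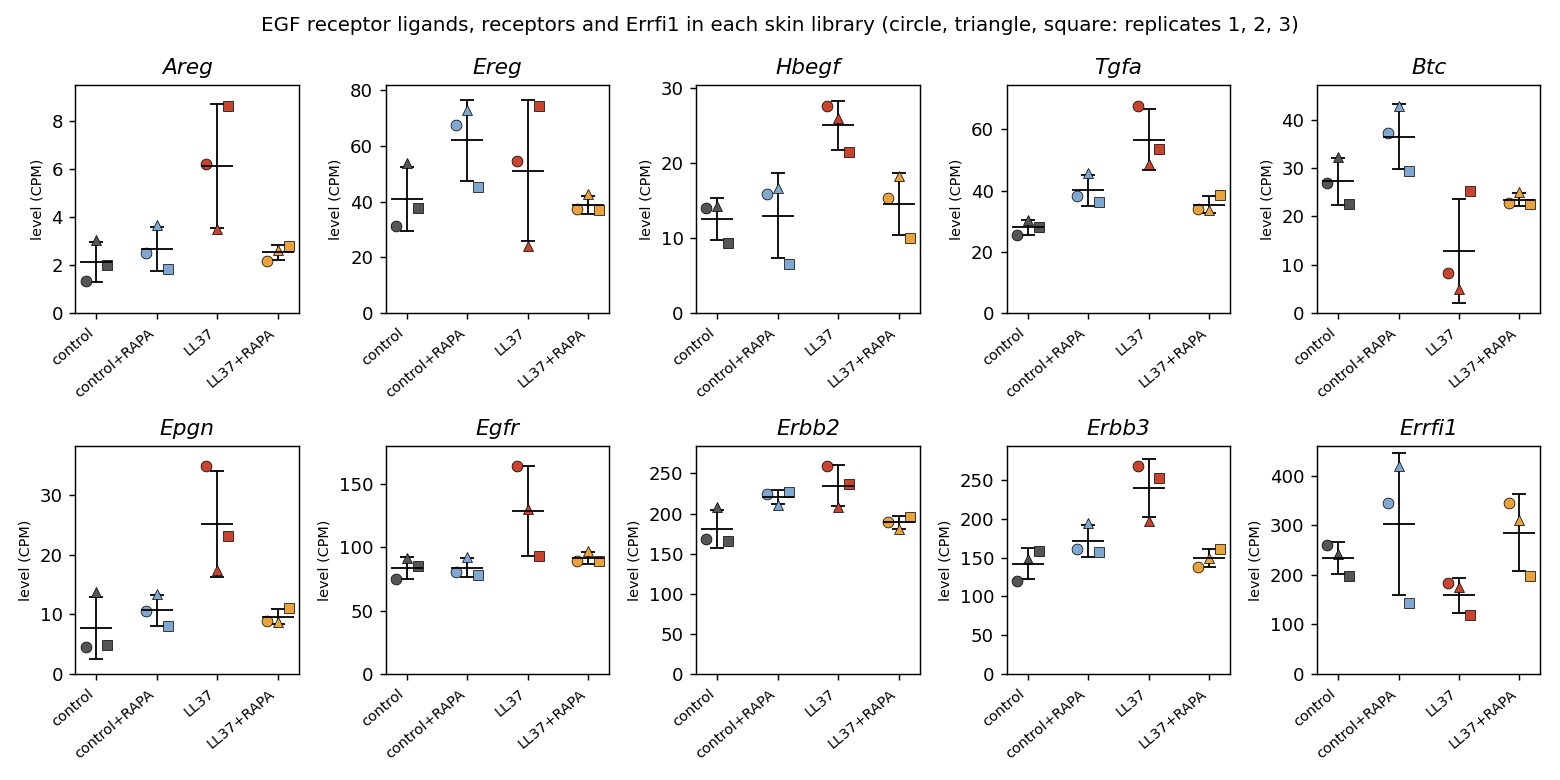
Level of each of the 10 genes in each library, in CPM, for the 4 groups. Symbols are single libraries (circle, triangle and square for replicates 1, 2 and 3), and bars are the mean ± SD of 3 libraries. The LL37 libraries of Areg, Hbegf, Tgfa, Epgn, Egfr and Erbb3 all lie above the control libraries, those of Erbb2 only just, and those of Errfi1 lie below them.

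Of the 6 ligands, 3 were called higher in LL37 than in control skin, namely Areg, Tgfa and Epgn, and no member was called lower. DESeq2 called these 3 and also Hbegf (higher) and Btc (lower). A call required an adjusted p under 0.05 in edgeR's quasi-likelihood test over all tested genes and a log2 fold change beyond 1 in either direction. In the same comparison 19.5% of all tested genes were called, 8.73% higher and 10.8% lower. Without the limit on fold change, 7 of 10 members passed the adjusted p, all of them higher in LL37, against 42.6% of all tested genes (21% higher and 21.6% lower). The libraries of both groups did not overlap for 8 of 10 members, against 49.7% of all tested genes. The median log2 fold change of the 10 members was 0.69, and that of all tested genes was -0.0049.

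Epgn encodes epigen, a ligand with low affinity for EGFR. Its level was 4.58, 13.7 and 4.90 CPM in control replicates 1 to 3, and 34.8, 17.5 and 23.1 CPM in LL37 replicates 1 to 3. All LL37 libraries exceeded the highest control library, control replicate 2, which itself stood well above the other 2. The log2 fold change of Epgn was 1.70 (SE 0.395, adjusted p = 0.00495, edgeR), the largest increase among the members, and 2.39 without control replicate 2 (adjusted p = 0.000276). In LL37 + RAPA skin Epgn was at 8.92, 8.76 and 11.04 CPM, within the range of the control libraries and below every LL37 library. LL37 exceeded LL37 + RAPA by 1.39 on the log2 scale (SE 0.388, adjusted p = 0.0243, edgeR). That call was lost when LL37 replicate 1 was left out (log2 fold change 1.09, adjusted p = 0.106, edgeR) and when any 1 of the LL37 + RAPA libraries was left out (adjusted p between 0.0542 and 0.0841).

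Areg encodes amphiregulin, a ligand that keratinocytes release in culture and in wounds. It was the least abundant member in CPM, at 1.35, 3.02 and 2.002 CPM in control and 6.20, 3.49 and 8.62 CPM in LL37. These levels rest on between 25 and 183 counts per library, all above the floor. The groups did not overlap, but LL37 replicate 2 lay close to control replicate 2. Areg was higher in LL37 by 1.52 on the log2 scale (SE 0.375, adjusted p = 0.00679, edgeR), which was 2.87-fold. In LL37 + RAPA it was at 2.18, 2.62 and 2.79 CPM, below all LL37 libraries. The log2 fold change of LL37 against LL37 + RAPA was 1.27 (SE 0.367, adjusted p = 0.028, edgeR), and this call was lost without LL37 replicate 1 or 3 or any 1 of the LL37 + RAPA libraries (adjusted p between 0.0644 and 0.0994).

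Tgfa encodes transforming growth factor alpha, a ligand made by keratinocytes themselves. Its levels were tight within groups, at 25.4, 30.5 and 28.3 CPM in control and 67.8, 48.6 and 53.5 CPM in LL37. Every LL37 library was above every control library. The log2 fold change was 1.01 (SE 0.139, adjusted p = 0.000193, edgeR), the smallest adjusted p of any member. The value lies at the limit for a call, and it was 0.95 without control replicate 1 and 0.86 without LL37 replicate 1, where the adjusted p stayed below the threshold. In LL37 + RAPA skin Tgfa was at 33.9, 33.6 and 38.7 CPM, between the control and the LL37 libraries with no overlap with either. LL37 exceeded LL37 + RAPA by 0.68 on the log2 scale (SE 0.137, adjusted p = 0.00638, edgeR), below the limit for a call.

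Hbegf encodes heparin-binding EGF-like growth factor, which is known for its release at wound edges. It was at 14.0, 14.3 and 9.38 CPM in control and 27.6, 26.0 and 21.4 CPM in LL37, with no overlap. Hbegf was higher in LL37 by 0.99 on the log2 scale (SE 0.322, adjusted p = 0.0267, edgeR), just under the limit for a call. The adjusted p was no longer below the threshold without control replicate 3 (0.0987) or LL37 replicate 1 (0.077) or 2 (0.053). In LL37 + RAPA it was at 15.3, 18.3 and 10.1 CPM, below all LL37 libraries. The difference of 0.78 between LL37 and LL37 + RAPA (SE 0.318, adjusted p = 0.0949, edgeR) did not pass the test. With a term for replicate number in the edgeR fit it was 0.83 and passed (adjusted p = 0.0161).

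Btc encodes betacellulin, a ligand of both Egfr and Erbb4. It was at 26.8, 32.3 and 22.5 CPM in control, and at 8.33, 5.02 and 25.2 CPM in LL37. LL37 replicates 1 and 2 were far below every control library, whereas LL37 replicate 3, the library that stood apart on the first principal component, was inside the control range. With all libraries the log2 fold change was -1.07 (SE 0.429, adjusted p = 0.0641, edgeR) and did not pass the test. Without LL37 replicate 3 it was -1.99 (adjusted p = 4.86e-05, edgeR), and without replicate 1 or 2 of that group it was -0.83 and -0.66 and did not pass. In LL37 + RAPA Btc was at 22.8, 25.1 and 22.6 CPM, all within the control range, and its log2 fold change of LL37 against LL37 + RAPA was -0.86 (adjusted p = 0.164, edgeR) with all libraries and -1.81 (adjusted p = 2.24e-04, edgeR) without LL37 replicate 3.

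Ereg encodes epiregulin. LL37 libraries overlapped those of each other group, with levels at 31.3, 53.7 and 37.7 CPM in control, 67.5, 72.9 and 45.3 CPM in control + RAPA, 54.6, 24.2 and 74.4 CPM in LL37 and 37.3, 42.7 and 36.8 CPM in LL37 + RAPA. LL37 replicate 2 held the lowest level of all 12 libraries and LL37 replicate 3 the highest. The log2 fold change of LL37 against control was 0.32 (SE 0.334, adjusted p = 0.467, edgeR), and without LL37 replicate 3 its sign turned (-0.02).

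The amount and the makeup of the 6 ligands were also described together. The summed level per length of the 6 ligands was 28.9 ± 7.84 CPM per kilobase in control (n = 3), 40.04 ± 8.91 in control + RAPA, 48.0 ± 13.6 in LL37 and 30.5 ± 1.33 in LL37 + RAPA, and the lowest LL37 library, at 32.4, lay within the control range of 24.0 to 37.9. As a share of that sum, Epgn was at 13.9 ± 5.36% in control and 29.1 ± 5.96% in LL37, and Areg at 5.95 ± 1.14% and 10.2 ± 2.08%. The share of Btc was 21.2 ± 3.09% in control and 5.56 ± 3.78% in LL37. The highest LL37 library, at 9.93%, was below the lowest control library, at 18.9%. In that library, LL37 replicate 3, the level of Btc itself was 5.58 CPM per kilobase, inside the control range of 4.98 to 7.16. A share also falls when the other ligands rise. Ereg held the largest share in control, 34.3 ± 2.59%, against 24.7 ± 7.03% in LL37, where the highest library, at 32.1%, lay above the lowest control library, at 31.7%. In LL37 + RAPA the shares were 17.4 ± 2.49% for Epgn, 6.83 ± 0.711% for Areg, 17.0 ± 0.497% for Btc and 30.9 ± 1.54% for Ereg. These shares were described and not tested.

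Epgn, Ereg, Areg and Btc are neighbours on mouse chromosome 5 (GENCODE M21 on GRCm38). They occupy 376 kb, from the start of Epgn at 91027464 to the end of Btc at 91402994, and are the only 4 protein-coding genes in this span. Epgn, Ereg and Areg lie on the plus strand with 39.4 and 46.0 kb between them, and Btc lies on the minus strand, 209 kb beyond Areg. Along this span the log2 fold changes of LL37 against control were 1.70, 0.32, 1.52 and -1.07, so the middle gene of the first 3 had the smallest value and the distant gene on the other strand had the opposite sign.

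**Figure D2:**
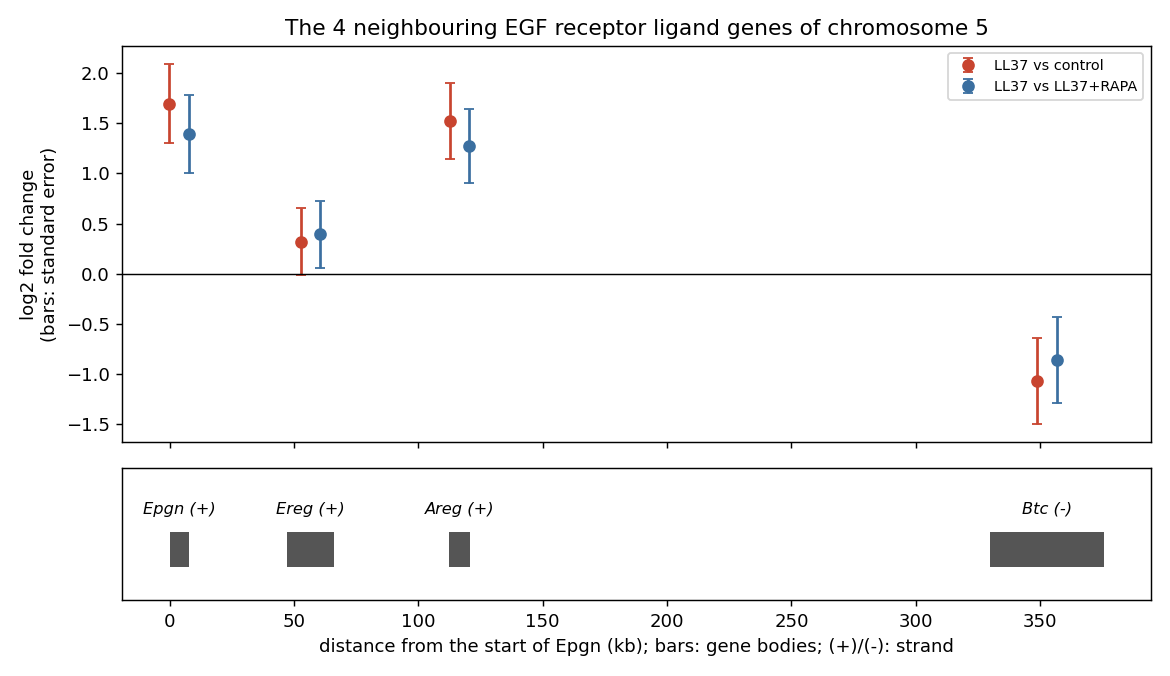
Log2 fold change of the 4 ligand genes of chromosome 5, placed by distance from the start of Epgn in kb, for the comparisons of LL37 with control and with LL37 + RAPA. Points are edgeR estimates with their standard errors, and the lower panel shows gene bodies and strands. Epgn and Areg lie above a log2 fold change of 1 in both comparisons, Ereg near 0.3 to 0.4 and Btc below 0.

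The 100 bases before the start of the genes are shown for the 2 neighbours that were called (Areg and Epgn), for the neighbour with the opposite sign (Btc) and for Errfi1, whose second start shares motif matches with Areg. The sequences were taken from RefSeq promoters on GRCm38.p6 and read 5′ to 3′ on the strand of the gene. For Epgn the window ends where the GENCODE gene begins, since the RefSeq start lies inside it. Capitals mark exact matches on either strand to 4 motifs: the cAMP response element TGACGTCA, the AP-1 site TGANTCA, the TATA box TATAAA and the GC box GGGCGG, of which 2 matches overlap in Errfi1. The windows lie at chr5:91139499-91139598 (plus strand) for Areg, chr5:91027364-91027463 (plus) for Epgn, chr5:91402995-91403094 (minus) for Btc and chr4:150854970-150855069 (plus) for Errfi1.
Areg: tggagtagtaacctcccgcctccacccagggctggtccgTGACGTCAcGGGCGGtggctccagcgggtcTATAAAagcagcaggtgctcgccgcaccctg
Epgn: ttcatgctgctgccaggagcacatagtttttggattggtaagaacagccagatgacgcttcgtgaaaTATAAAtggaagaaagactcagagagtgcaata
Btc: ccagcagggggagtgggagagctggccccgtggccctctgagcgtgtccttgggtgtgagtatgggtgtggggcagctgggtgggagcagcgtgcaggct
Errfi1: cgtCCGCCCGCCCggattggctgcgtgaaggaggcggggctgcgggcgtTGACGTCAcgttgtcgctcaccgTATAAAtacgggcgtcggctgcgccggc

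In the Areg window the cAMP response element match lies 61 to 54 bases before the start and the TATA box match 31 to 26 bases before it. In the Errfi1 window the same 2 matches lie 51 to 44 and 28 to 23 bases before the start. Epgn has the TATA box match alone, 33 to 28 bases before the end of its window, and Btc has no match to these letters. The cAMP response element was found in 1.15% of 32851 promoter windows of this length, the AP-1 site in 2.73%, the TATA box in 5.56% and the GC box in 24.7%. Tgfa and Egfr each had 1 GC box match, and Erbb2 had no match to these motifs. No window was searched for Ereg, Hbegf or Erbb3. Both matches are shared by Areg and the second start of Errfi1, while the window of the first Errfi1 start had no match. The log2 fold changes of LL37 against control were 1.52 for Areg and -0.56 for Errfi1, of which only that of Areg passed the test. Counts per gene do not tell which start was used.

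All 3 receptors passed the adjusted p in LL37 against control, and none reached the limit on fold change. Erbb3, a receptor with little kinase activity that signals through its partners, was at 120.3, 148 and 159 CPM in control and 268, 197 and 253 CPM in LL37, with no overlap. Its log2 fold change was 0.75 (SE 0.142, adjusted p = 0.00147, edgeR). In LL37 + RAPA Erbb3 was at 138, 149 and 162 CPM, overlapping the control libraries, and LL37 exceeded LL37 + RAPA by 0.68 on the log2 scale (SE 0.142, adjusted p = 0.00724, edgeR). Without LL37 replicate 3 this difference was 0.63.

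Egfr itself was at 74.7, 91.4 and 85.0 CPM in control and 164, 130.1 and 93.0 CPM in LL37. LL37 replicate 3 was only just above control replicate 2. The log2 fold change was 0.62 (SE 0.168, adjusted p = 0.0109, edgeR), 0.84 without LL37 replicate 3 (adjusted p = 0.000188) and 0.41 without LL37 replicate 1 (adjusted p = 0.0503). With only the groups compared in the fit it was 0.61 and did not pass (adjusted p = 0.0556, edgeR). LL37 + RAPA libraries, at 89.2, 97.5 and 89.1 CPM, overlapped with LL37, and the log2 fold change of LL37 against LL37 + RAPA was 0.49 (adjusted p = 0.0532, edgeR) with all libraries and 0.68 without LL37 replicate 3 (adjusted p = 0.0016).

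Erbb2 had the highest level per length among the receptors and the smallest difference. It was at 168, 208 and 166 CPM in control and 259, 208 and 237 CPM in LL37, where LL37 replicate 2 and control replicate 2 were nearly equal. Its log2 fold change was 0.38 (SE 0.109, adjusted p = 0.0156, edgeR), and it no longer passed without LL37 replicate 1 (0.30, adjusted p = 0.0714), control replicate 1 (0.33, adjusted p = 0.0675) or control replicate 3 (0.31, adjusted p = 0.0753), nor with only the groups compared in the fit (0.36, adjusted p = 0.0755). In LL37 + RAPA it was at 189, 181 and 196 CPM, and LL37 exceeded it by 0.31 on the log2 scale (adjusted p = 0.0555, edgeR), with no overlap. The exons of Erbb2 overlap those of Mien1 on the other strand, and exons of Tgfa and Ereg likewise overlap those of Gm43917 and Gm19610. The counting is not stated to use strand, so reads of the shared bases cannot be told apart.

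Errfi1 was the only member whose LL37 libraries all lay below the control libraries. It was at 260.4, 243 and 198 CPM in control, 346, 419 and 144 CPM in control + RAPA, 184, 175 and 119 CPM in LL37 and 346, 312 and 198 CPM in LL37 + RAPA. Replicate 3 was the lowest library of each group. The log2 fold change was -0.56 against control (SE 0.335, adjusted p = 0.206, edgeR) and -0.84 against LL37 + RAPA (SE 0.336, adjusted p = 0.0885, edgeR), and neither passed this test. In DESeq2 the second difference, at -0.83, passed the adjusted p (0.0449). With a term for replicate number (replicate block) in the edgeR fit both passed, at -0.58 (adjusted p = 0.0391) and -0.83 (adjusted p = 0.0196). Whether Errfi1 passed thus depended on the fit.

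**Figure D3:**
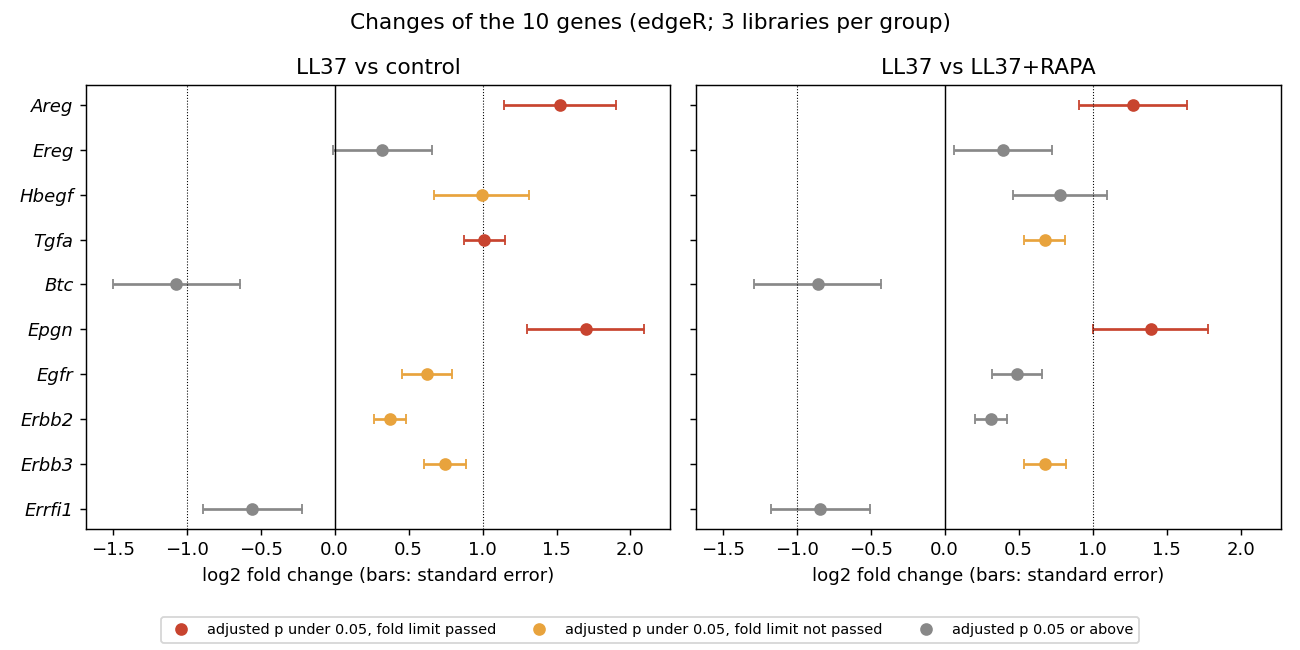
Log2 fold change (x axis) of the 10 genes with its standard error for LL37 against control (left) and against LL37 + RAPA (right), from edgeR with 3 libraries per group. Red points passed the adjusted p and the fold limit, orange points the adjusted p alone and grey points neither. Areg and Epgn are red in both panels, Tgfa in the left panel, and Btc and Errfi1 are the 2 grey points left of 0.

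Against LL37 + RAPA, 2 members were called higher in LL37 (Areg and Epgn) and none lower, while 10.1% of all tested genes were called (4.33% higher and 5.8% lower). The adjusted p alone was passed by 4 of 10 members, all higher in LL37 (Areg, Epgn, Tgfa and Erbb3), against 24.2% of all tested genes (11.8% higher and 12.4% lower). The libraries did not overlap for 7 of 10 members, against 38.3% of all tested genes. The median log2 fold change of the members was 0.58. This comparison shares its LL37 libraries with LL37 vs control, so that an unusual LL37 library moves both.

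LL37 + RAPA and control skin were not separated by the test for any member. No member was called or passed the adjusted p in edgeR, nor in DESeq2, although 6.49% of all tested genes were called and 14% passed the adjusted p in edgeR. At an unadjusted p under 0.05 there was 1 member, Tgfa, with a log2 fold change of 0.34 (SE 0.138, adjusted p = 0.137, edgeR). Tgfa was also the only member whose libraries did not overlap, against 36.4% of all tested genes. The other 9 log2 fold changes ranged from -0.21 for Btc to 0.30 for Epgn. The value of Epgn rested on control replicate 2, without which it was 1.00 (adjusted p = 0.06, edgeR). The standard errors ranged from 0.109 for Erbb2 to 0.419 for Btc. For each gene, differences of about the size of its own standard error were not detectable at this depth and number of libraries.

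RAPA alone gave no call for any member, and none for any of the 17993 tested genes (0% called in edgeR, and 0% past the adjusted p). At an unadjusted p under 0.05 there were 2 members in edgeR, out of 1556 genes in all, and DESeq2 called no member and 52 genes in all. All 10 log2 fold changes of control + RAPA against control were positive, with a median of 0.35. Tgfa was at 38.2, 45.7 and 36.4 CPM in control + RAPA, above all 3 control libraries, with a log2 fold change of 0.52 (SE 0.138, adjusted p = 0.399, edgeR). Erbb2, at 225, 210.4 and 227 CPM, also lay above all control libraries, with a log2 fold change of 0.29 (SE 0.109, adjusted p = 0.51, edgeR). These were the 2 members without overlap, against 15.7% of all tested genes.

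Whether RAPA acted differently in LL37 and in control skin was tested as an interaction, the difference between the change with RAPA in LL37 skin and the change with RAPA in control skin. Tgfa was called, with an interaction of -1.19 on the log2 scale (SE 0.195, adjusted p = 0.0211, edgeR): its mean was 40.1 CPM in control + RAPA against 28.0 in control, and 35.4 in LL37 + RAPA against 56.6 in LL37. Erbb3 passed the adjusted p with an interaction of -0.94 (SE 0.200, adjusted p = 0.0344, edgeR), but not in 10 of the 12 fits that left out 1 library (adjusted p between 0.0513 and 0.0988). Among all tested genes 2.38% were called and 3.28% passed the adjusted p. The interactions of Epgn (-1.86, adjusted p = 0.0826, edgeR), Areg (-1.60, adjusted p = 0.109) and Erbb2 (-0.60, adjusted p = 0.0566) did not pass. The call for Tgfa was lost without control replicate 1, LL37 + RAPA replicate 1 or control + RAPA replicate 3 (adjusted p between 0.0523 and 0.0687), and in the same fits between 2 and 23 genes in all were called.

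Other genes of the pathway were followed in 6 lists with 48 genes, of which 46 were tested. In LL37 against control 10 of them were called higher and 1 lower, and 28 passed the adjusted p, 23 higher and 5 lower, while 19.5% of all tested genes were called and 42.6% passed. Against LL37 + RAPA 5 were called higher and 2 lower, and 11 of 18 past the adjusted p were higher, while 10.1% of all tested genes were called and 24.2% passed. These shares are the background of the counts for the single lists as well. The median log2 fold change of the 46 genes was 0.37 against control.

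Among the ligands outside the 10 members, Egf and Nrg1 differed in opposite directions by more than any member. Egf, the founding ligand of the family, was at 27.6, 18.6 and 25.2 CPM in control and 0.925, 1.29 and 1.46 CPM in LL37, a log2 fold change of -4.27 (SE 0.381, adjusted p = 1.03e-05, edgeR). In LL37 + RAPA it was at 5.55, 2.66 and 4.15 CPM, between both groups, and LL37 was lower by 1.73 on the log2 scale (log2 fold change -1.73, adjusted p = 0.00887, edgeR). The summed skeletal muscle markers given above were likewise lowest in LL37 and between control and LL37 in LL37 + RAPA, and the part of that tissue in the result was not tested. Nrg1, which encodes neuregulin 1, a ligand of Erbb3 and Erbb4, was at 0.863, 0.615 and 1.79 CPM in control and 20.8, 13.0 and 6.26 CPM in LL37. Its log2 fold change was 3.61 (SE 0.506, adjusted p = 0.000222, edgeR), and in LL37 + RAPA it was at 2.94, 4.42 and 4.28 CPM, below all LL37 libraries (1.78, adjusted p = 0.0156, edgeR).

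Nrg2 was called lower in LL37 than in LL37 + RAPA, with a log2 fold change of -1.23 (adjusted p = 0.017, edgeR). Erbb4, the fourth receptor of the family, was not tested because of its low counts, at 0 to 10 per library (at most 0.576 CPM). Exons of Egf and Nrg1 overlap those of noncoding genes on the other strand, with the same limit as for Erbb2. Exons of Dusp5, Fosl1, Junb and Phlda1, described below, also overlap those of genes on the other strand.

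Of 4 genes for ligand shedding none was called. Adam17, the main protease that releases Areg, Tgfa and Hbegf, was at 63.9, 71.5 and 66.4 CPM in control and 131, 122 and 90.5 CPM in LL37, with a log2 fold change of 0.76 (adjusted p = 0.00147, edgeR). Adam10, which sheds Btc and Egf, differed by 0.74 (adjusted p = 0.000111, edgeR). Rhbdf1, an adaptor of Adam17, was lower in LL37 (-0.77, adjusted p = 0.000915, edgeR).

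Feedback inhibitors other than Errfi1 were higher in part. Of 13 tested, 8 passed the adjusted p in LL37 against control, 7 of them higher. Dusp6 and Dusp5, phosphatases of ERK that ERK signalling is known to induce, were called at 1.80 (adjusted p = 0.000263, edgeR) and 1.39 (adjusted p = 0.000275) on the log2 scale. Dusp6 was at 39.4, 47.4 and 29.1 CPM in control, 157, 156 and 92.3 CPM in LL37 and 77.7, 117 and 75.5 CPM in LL37 + RAPA. Spry4, a Sprouty inhibitor of receptor signalling, was called higher against control (1.06, adjusted p = 0.00136, edgeR), at 5.55, 5.95 and 5.11 CPM in control and 13.1, 13.9 and 7.82 CPM in LL37. In LL37 + RAPA it was at 14.5, 16.6 and 13.9 CPM, and its difference from LL37 did not pass the test (-0.38, adjusted p = 0.173, edgeR). In LL37 against LL37 + RAPA 4 of the 13 passed the adjusted p, 1 higher and 3 lower, and none was called in edgeR or DESeq2.

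In the signal relay, 9 of 15 genes passed the adjusted p in LL37 against control, 7 of them higher and 2 lower. Against LL37 + RAPA 3 of the 15 passed, all higher, where 24.2% of all tested genes did. The same 1 gene was called in each comparison. That gene was Map2k1, the kinase MEK1 that activates ERK, at 62.0, 59.9 and 63.8 CPM in control, 188, 166 and 95.2 CPM in LL37 and 56.7, 75.1 and 60.7 CPM in LL37 + RAPA. Its log2 fold change was 1.27 against control (SE 0.203, adjusted p = 0.000528, edgeR) and 1.22 against LL37 + RAPA (SE 0.203, adjusted p = 0.00283, edgeR).

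Of 10 genes known to be induced through ERK, 5 were called higher in LL37 than in control skin. They were Plaur (the urokinase receptor, log2 fold change 2.86, adjusted p = 0.00194, edgeR), Ier3 (2.44, adjusted p = 2.14e-05), Junb (1.46), Fosl1 (1.40) and Phlda1 (1.05). Ier3, an early response gene, was at 25.2, 29.3 and 34.3 CPM in control, 191, 191 and 101 CPM in LL37 and 41.0, 52.8 and 59.7 CPM in LL37 + RAPA. Ier3, Fosl1 and Phlda1 were also called in LL37 against LL37 + RAPA, at 1.65, 1.18 and 1.07 on the log2 scale. Fos and Egr1, which are also early response genes, did not pass in either comparison, and their levels varied widely within groups. These genes respond to many stimuli besides EGFR, and ERK activity was not measured here.

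Some of these calls rested on the scaling or on single libraries. With libraries scaled to basal keratinocyte markers, as described for the members below, Egf, Nrg1, Dusp6, Ier3 and Plaur were still called in LL37 against control, and Spry4, Dusp5, Map2k1, Fosl1, Junb and Phlda1 were not. Against LL37 + RAPA, Egf, Nrg1, Nrg2 and Ier3 were still called on that scale, and Map2k1, Fosl1 and Phlda1 were not. The call of Spry4 against control was lost without control replicate 3 or LL37 replicate 1 or 2, and that of Phlda1 without control replicate 2 or LL37 replicate 1. Against LL37 + RAPA the calls of Nrg1 and Phlda1 were lost without LL37 replicate 1 or LL37 + RAPA replicate 1, and that of Nrg2 without LL37 replicate 1 or 2 or LL37 + RAPA replicate 2, and also with only the groups compared in the fit.

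**Figure D4:**
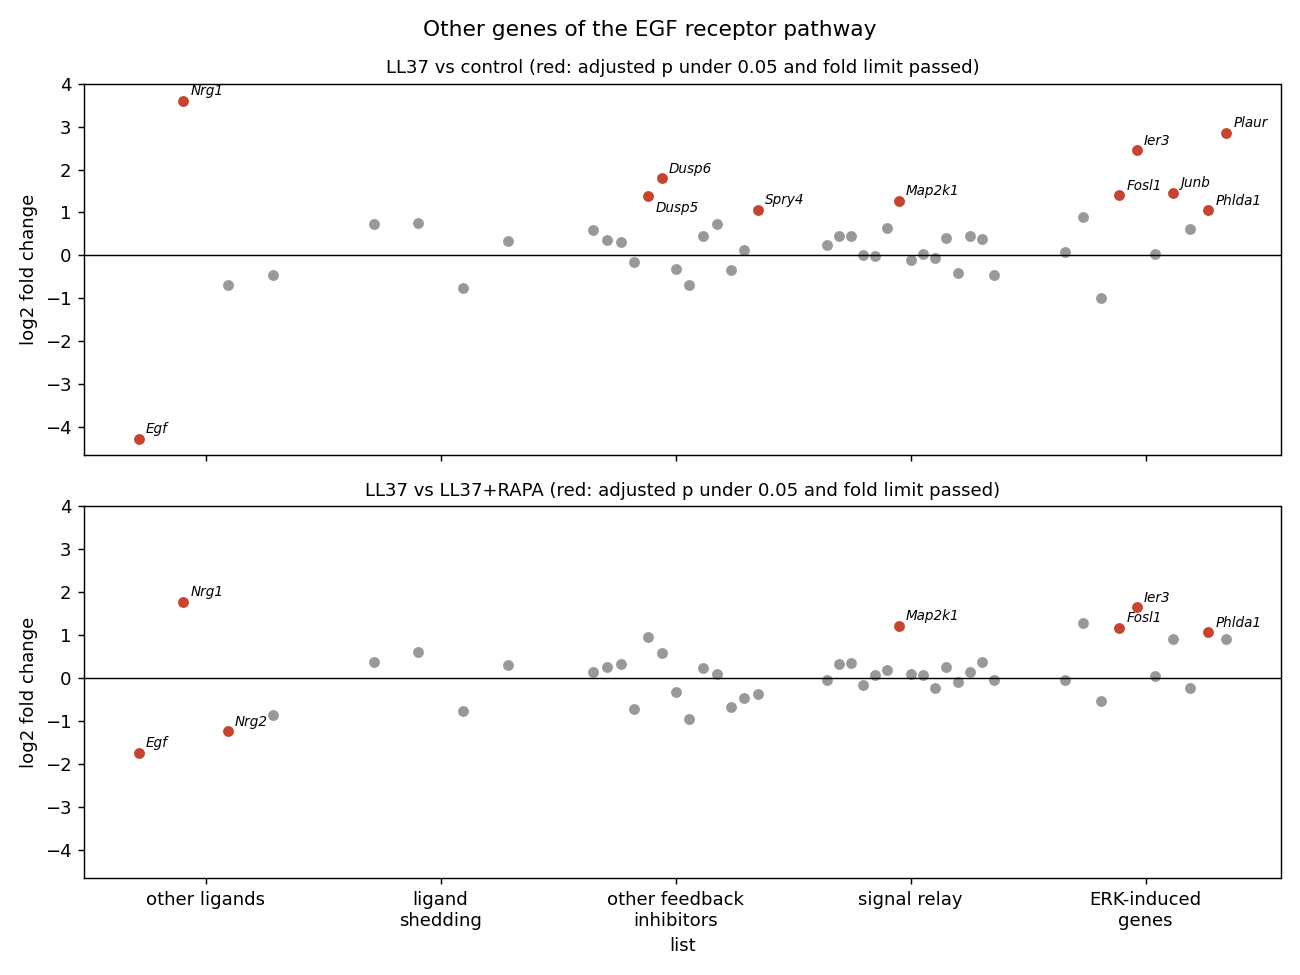
Log2 fold change (y axis) of the tested genes of 5 pathway lists, in LL37 vs control (top) and LL37 vs LL37 + RAPA (bottom). Each point is 1 gene, and named red points passed the adjusted p and the fold limit. Egf lies lowest and Nrg1 highest in the top panel, and 10 of the 11 red points there are above 0.

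The tissue in the libraries differed between the groups as well. The summed level of 7 basal keratinocyte markers was between 12642 and 17505 CPM in control, 12626 and 15147 in control + RAPA, 21454 and 22116 in LL37 and 15317 and 16833 in LL37 + RAPA. Of the 7, 5 passed the adjusted p in LL37 against control, and none was at 0 in any library. Krt14 (1.12) and Itga6 (1.39) were called higher, Krt5 and Itgb4 passed as higher without reaching the fold limit, and Krt15 (-1.06) was called lower, so the markers that passed did not all have the same sign. The mean sum was 1.48 times as high in LL37 as in control. For the summed CPM of the members, this ratio was 1.48 for the 3 receptors and 1.49 for the 6 ligands. The ligand sum pools log2 fold changes from -1.07 for Btc to 1.70 for Epgn, and a link between these ratios was not tested. All 4 stress keratins were called higher, and their mean sum was 4.42 times as high as in control. The ratio was 0.991 for differentiated keratinocytes, 10.01 for neutrophils, 2.13 for macrophages, 1.84 for T and innate lymphoid cells, 1.18 for fibroblasts, 0.861 for mast cells, 0.836 for endothelial cells, 0.484 for hair follicle, 0.386 for Schwann cells and melanocytes, 0.352 for adipocytes and 0.00609 for skeletal muscle.

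When the libraries were scaled to the basal keratinocyte list in place of all genes, an alternative chosen after seeing the data, the median of all tested genes in LL37 against control shifted to -0.60. The log2 fold changes of the receptors were then 0.04 for Egfr, -0.20 for Erbb2 and 0.16 for Erbb3, and none passed the adjusted p. Epgn stayed higher at 1.19 (adjusted p = 0.00885, edgeR) and Areg at 0.98 (adjusted p = 0.0349), while Tgfa was at 0.43 (adjusted p = 0.0501) and Hbegf at 0.41 (adjusted p = 0.317). Btc, at -1.64 (adjusted p = 0.00566), and Errfi1, at -1.16 (adjusted p = 0.0155), passed the test on this scale. Relative to basal keratinocyte markers, Epgn and Areg were thus higher and Btc and Errfi1 lower in LL37, and the receptors were not separated from control. On this scale 5357 of all tested genes were called in LL37 against control, only 14.1% of them higher. Most called genes were thus lower, as Btc and Errfi1 were. In LL37 against LL37 + RAPA neither call held on this scale, with Areg at 0.84 (adjusted p = 0.0795, edgeR) and Epgn at 0.96 (adjusted p = 0.0371), below the fold limit. Tgfa and Erbb3, both at 0.24, no longer passed (adjusted p = 0.273 and 0.289, edgeR), and Btc (-1.29, adjusted p = 0.0301) and Errfi1 (-1.28, adjusted p = 0.0156) were called lower. The median of all tested genes in this comparison was -0.44 on this scale. Over all tested genes 2941 were called, only 14.2% of them higher, so a call as lower was the common outcome. The part of the cell types in these results was not tested beyond this scaling.

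**Figure D5:**
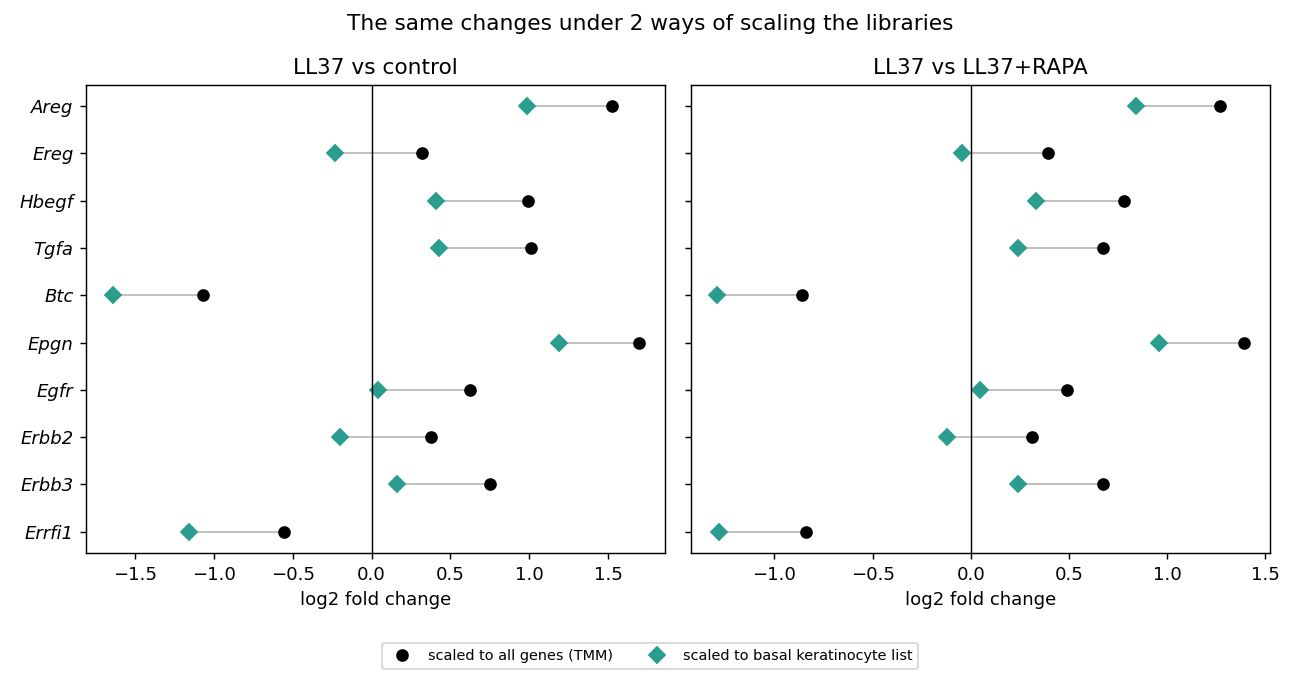
Log2 fold change (x axis) of the 10 genes with libraries scaled to all genes (black circles) or to 7 basal keratinocyte markers (green diamonds), for LL37 against control (left) and against LL37 + RAPA (right). Each line joins the values of 1 gene. All diamonds lie to the left of the circles, Egfr, Erbb2 and Erbb3 come to lie near 0 in LL37 vs control, and Ereg and Erbb2 change sign in both panels.

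The genes whose pattern over the 12 libraries was most like that of a member were found for the 3 members with the smallest adjusted p in LL37 against control, by the root mean square difference of centred log2 CPM. For Tgfa they were Degs1 (0.146), Epcam (0.158) and Aqp9 (0.165), where the pattern of Tgfa itself had a root mean square of 0.388. For Erbb3 they were Fam135a (0.101), Atp11b (0.108) and Cldnd1 (0.118), against 0.327 for Erbb3 itself. For Epgn they were Pglyrp3 (0.325), Ehf (0.386) and Pla2g5 (0.402), against 0.802 for Epgn itself. In LL37 all 9 exceeded their level in control and in LL37 + RAPA, past the adjusted p in edgeR. The 3 members passed both tests themselves, so this largely follows from how the 9 genes were chosen and is no separate result. The likeness is a description of these 12 libraries, which share group differences in many genes.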

How the data were processed

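The deposited table holds raw read counts per gene for 12 libraries, which the authors made without normalization. The paper names HTSeq 0.6.0 as the counter, while the submitters' processing notes list HISAT2 2.0.5, StringTie 1.3.3b, featureCounts 1.5.0-p3, DESeq2 1.16.1 and the build mm10, and the strand setting is not given in the sources used here. Groups and replicate numbers come from the sample labels, which name no batch.

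Identifiers were matched to GENCODE M21 (GRCm38), which named 52489 of 52636 genes. All libraries were fitted together in R 4.3.3 with edgeR 4.0.16 (TMM, filterByExpr by group, quasi-likelihood F-test), with Benjamini-Hochberg adjustment over 17993 genes. CPM values are TMM-scaled, and CPM per kilobase divides by the union of exons. log2 CPM used a prior count of 2. No gene set was tested. The main edgeR fit and the DESeq2 fit were checked on simulated counts with changes in the LL37 group only.

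The members, lists and tests were chosen with earlier results of these data known. Members are named throughout, as are other pathway genes called in either LL37 comparison, Egf, Erbb4 and the 3 genes most like 3 members. Genes outside this rule (Adam10, Adam17, Rhbdf1, Fos and Egr1) were named after their values were seen. Alternatives were other scalings, filters, DESeq2 1.42.0, fits of the compared groups only, a replicate block and each library left out.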

Additional observations from a re-analysis of the deposited data

Results flagged for a closer look

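The change with RAPA differed between LL37 and control skin for 2 of the 10 genes, by a test of the difference itself. Tgfa had an interaction of -1.19 on the log2 scale (SE 0.195, adjusted p = 0.0211, edgeR). RAPA went with a log2 fold change of 0.52 in control skin (adjusted p = 0.399), where all 3 control + RAPA libraries were above the control libraries, and LL37 exceeded LL37 + RAPA by 0.68 (adjusted p = 0.00638). Erbb3 had an interaction of -0.94 (SE 0.200, adjusted p = 0.0344, edgeR), with 0.26 for RAPA in control skin (adjusted p = 0.642) and LL37 above LL37 + RAPA by 0.68 (adjusted p = 0.00724). Across the alternatives the adjusted p ranged from 9.63e-06 to 0.0687 for Tgfa and from 0.000854 to 0.171 for Erbb3. Erbb3 did not pass in 10 of 12 fits with 1 library left out, with library size scaling (0.0505), with the replicate block (0.0582) or with basal keratinocyte scaling (0.171), and Tgfa did not pass in 3 of those 12 fits or with basal scaling (0.0589). Among all tested genes 590 passed the adjusted p in this test.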

How the results depend on the processing

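Members called in LL37 vs control numbered 3, and 7 without the fold limit, 5 with DESeq2 (Hbegf and Btc added) and 2 to 5 with 1 library left out. With basal keratinocyte scaling Areg and Tgfa were no longer called, and Btc and Errfi1, lower in LL37, were called instead. Those past the adjusted p numbered 7, 4 with basal keratinocyte scaling (Areg and Epgn higher, Btc and Errfi1 lower) and 4 to 8 with 1 library left out (4 without LL37 replicate 1). For LL37 vs LL37 + RAPA the calls numbered 2, and 4 without the fold limit, 1 with only the groups compared, 2 other members with basal scaling (Btc and Errfi1, lower in LL37, in place of Areg and Epgn) and 0 to 2 without 1 library (0 without LL37 replicate 1 or any LL37 + RAPA library), and the adjusted p was passed by 4, by 7 with DESeq2 and by 2 to 6 without 1 library. In LL37 + RAPA vs control, Tgfa passed with library size scaling (1 member). Interaction calls numbered 1, and 2 without the fold limit, 2 without a filter, 3 with DESeq2, 0 with basal scaling and 0 to 3 without 1 library, and the adjusted p was passed by 2, by 1 with library size scaling, 5 with DESeq2, 0 with basal scaling and 0 to 6 without 1 library. The cause was not tested.

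The signs of small log2 fold changes turned. In LL37 vs control these were Ereg (-0.0228 to 0.69 without 1 library, lowest without LL37 replicate 3, and -0.23 with basal scaling) and Erbb2 (-0.20 basal). With basal scaling they were also Ereg (-0.0441) and Erbb2 (-0.12) in LL37 vs LL37 + RAPA, and Egfr (-0.0104), Erbb2 (-0.0818) and Erbb3 (-0.081) in LL37 + RAPA vs control, where Ereg (0.0545 library size, 0.16 without control replicate 2) and Erbb3 (-0.0318 without control replicate 1) turned too. In control + RAPA vs control they were Hbegf (-0.0077 library size, -0.0053 with the replicate block, and -0.17 to 0.35 without 1 library) and Egfr (-0.0045 with DESeq2 or its size factors, -0.0527 library size, -0.0121 no filter, -0.0007 strict filter, -0.0023 only these groups, -0.0769 to 0.0504 without 1 library).

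Over all tested genes, the deviations of same-numbered libraries correlated at -0.188 to 0.263, over 0.1 in 4 of 18 pairs. Of 12 libraries, 1 correlated best with its own number in every other group. The main fits took the libraries to share only a number. These correlations cannot tell whether single genes, such as Hbegf and Errfi1 with replicate 3 lowest in every group, share more than that. With the replicate block the calls numbered 4 in LL37 vs control (Hbegf added). Past the adjusted p were then 8 members in place of 7 in LL37 vs control (Errfi1 added, adjusted p = 0.0391, edgeR), 6 in place of 4 in LL37 vs LL37 + RAPA (Hbegf, 0.0161, and Errfi1, 0.0196, added) and 1 in place of 2 in the interaction (Erbb3 at 0.0582). Over all genes, interaction calls numbered 429 in edgeR and 1008 in DESeq2. With library size scaling 44.6% of calls in LL37 + RAPA vs control were higher, against 33.05%, and with basal scaling 14.1% against 44.7% in LL37 vs control.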

Other observations

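Among the genes described here, 2 members and 11 of the 46 other pathway genes had replicate 3 as the lowest library in all 4 groups, a pattern noticed after the values were seen. None had replicate 1 or replicate 2 as the lowest in all groups. Over all 17993 tested genes this held for 533 with replicate 3 (2.96%), 186 with replicate 1 and 209 with replicate 2. The members were Hbegf and Errfi1, and the others included Fos, Fosb, Fosl1 and Egr1, which are early response genes, and the inhibitors Spry2, Spred1 and Cblb. Egr1 was at 47.3, 70.9, 106 and 80.0 CPM in replicate 3 of control, control + RAPA, LL37 and LL37 + RAPA, while the other libraries were between 199 and 287 CPM. Fos was at 17.5, 16.3, 48.4 and 23.4 CPM in these libraries, and between 35.9 and 290.3 CPM in the others. The labels do not say what the replicate numbers share.

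All 13 feedback inhibitors other than Errfi1 had positive log2 fold changes in LL37 + RAPA against control, with a median of 0.44. Of these, 5 passed the adjusted p, all higher, against 14% of all tested genes. The libraries did not overlap for 9 of them, against 36.4% of all tested genes. Spry4 and Dusp6 were called in LL37 + RAPA against control at 1.44 (adjusted p = 0.000581, edgeR) and 1.22 (adjusted p = 0.00777) on the log2 scale, where no member passed. Dusp5, of the same list, and Ier3, of the ERK-induced genes, had interactions of LL37 and RAPA of -1.41 (adjusted p = 0.0293) and -2.09 (adjusted p = 0.0198).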
